A study of Mus musculus with 6 samples.

Results

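The receptor level of the R-spondin and Wnt pathway was examined in libraries of sorted HFSCs (hair follicle stem cells) through 10 genes, chosen by name from the gene table. These were the ligands Rspo1, Rspo2 and Rspo3, the receptors Lgr4, Lgr5 and Lgr6, the Wnt coreceptors Lrp5 and Lrp6, and the membrane ligases Znrf3 and Rnf43. All 10 were found among the 56941 genes of the table, and all 10 passed the filter on low counts that left 32149 genes for testing. In the libraries labelled Dab2-cKO, 6 of the 10 were lower than in the libraries labelled WT and 2 were higher, where 11.5% of all genes tested were called lower and 16.8% higher (adjusted p under 0.05 by edgeR). Genes with more counts were called more often. With a mean count of at least 50, 4062 of 14801 genes were called lower and 4461 higher, and 5 and 2 of the 10. Lgr4, Lgr5, Znrf3 and Rnf43 had less than 0.5 times their WT level, Lrp6 fell less, and Lgr6 and Rspo1 rose. The remaining gene called lower, Rspo2, had means no higher than an evenly spread background would give.

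HFSCs were sorted from the dorsal skin of female mice at PD68 (postnatal day 68) as cells positive for CD34 and α6-integrin, with 3 biological replicates for each genotype. All mice were Dab2 fl/fl on the strain B6;129S4-Dab2tm1Cpr/J and received tamoxifen at 75 mg/kg per day for 5 days. Those called WT lacked the Cre transgene, while those called Dab2-cKO carried it under the K14 promoter, which drives expression in basal keratinocytes. Deletion of Dab2 by cell type was not measured in these libraries. Total RNA was sequenced and counted per gene, with library totals between 7040032 and 11696457 counts. With 3 counts as the limit for a count of 0, shares under 2.56e-05% to 4.26e-05% of a library could not be seen, counting error alone considered. The study chose this age because its histology placed both genotypes in the second telogen, the resting phase of the hair cycle. It asked whether changes in canonical Wnt signaling were present then. Stage was not measured in these libraries. As given below, markers of the matrix, inner root sheath and hair shaft and of proliferation differed strongly between the genotypes.

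In canonical Wnt signaling, a Wnt ligand brings a Frizzled receptor together with LRP5 or LRP6, and the phosphorylated tail of the coreceptor recruits Axin, so that β-catenin is spared from destruction. ZNRF3 and RNF43 are ubiquitin ligases of the cell membrane that remove Frizzled and LRP6 from the surface. R-spondins are secreted proteins that bind LGR4, LGR5 or LGR6 together with these ligases and clear the ligases away, which leaves more Wnt receptor at the surface. Lgr5, Znrf3 and Rnf43 are themselves known as targets of the pathway in several tissues. In the hair follicle, Lgr5 is known as a marker of the lower bulge and the hair germ, Lgr6 marks cells above the bulge around the isthmus, and R-spondins are mostly made by dermal cells and the dermal papilla.

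The targeted gene was higher, not lower, in the libraries labelled Dab2-cKO. Dab2 was counted at 338, 332 and 309 normalized counts in WT replicates 1 to 3 and at 1434, 1300.2 and 1389.5 in Dab2-cKO replicates 1 to 3 (log2 fold change 2.08, SE 0.08, adjusted p = 3.04e-34 by edgeR). The columns taken as Dab2-cKO are named only by the floxed allele, which both genotypes carry. The counts were taken over the whole gene and do not show the floxed segment by itself. Cells outside the epidermal lineage, whose markers are given later in this paragraph, may also add to the Dab2 counts. The part of the labels, of the counted exons or of other cell types in the Dab2 values was not tested. The genotypes are given below as the libraries are labelled, and every direction depends on those labels. Measurements of Dab2 and of Wnt signaling by other assays of the study, made in the same genotypes, were not analysed here. All 14 genes of a list of bulge markers passed the filter, 9 of them higher and 3 lower in the libraries labelled Dab2-cKO. The sort markers Cd34 (log2 fold change 1.8) and Itga6 (0.55) were among those higher. The others were Nfatc1 (1.32), Col17a1 (1.01), Krt14 (0.85), Krt15 (0.84), Postn (0.66), Krt5 (0.62) and Tcf7l1 (0.37). Sox9 (-1.45), Lhx2 (-1.43) and Foxc1 were lower, and Tcf7l2 and Fgf18 were not called. The bulge list thus moved in both directions. It is not specific to the bulge, as Krt14, for example, is a gene of basal keratinocytes. Of markers of other follicle cells, 12 of 12 genes for the matrix, inner root sheath and hair shaft, 12 of 12 proliferation genes and 5 of 7 hair germ genes were lower, and 1 hair germ gene was higher. For the isthmus, infundibulum and sebaceous gland 5 of 8 were higher and 3 lower, and for the differentiated interfollicular epidermis 6 of 7 were higher and 1 lower. Among cells outside the epidermal lineage, 8 of 8 endothelial, 8 of 9 immune, 7 of 7 skeletal muscle and 6 of 12 fibroblast and dermal papilla genes were higher, 3 of the latter were lower, and 6 of 7 melanocyte genes were lower. No gene of these lists was at 3 counts or fewer in every library. In bulk RNA of this kind, fewer cells of a type and less RNA per cell cannot be told apart.

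For the 3 receptors and for Lrp6, the coreceptor that was called lower, the 250 bases that precede the outermost annotated start in GRCm39 are given below, 5′ to 3′ on the strand of the gene. Capitals mark the core of the TCF/LEF motif, searched on both strands in 4 forms. Of these CTTTGAA is the first form, the second form reads CTTTGAT, the third form is given by CTTTGTA, and the fourth form is spelled CTTTGTT.
Lgr4 (chr2:109747589-109747838, plus strand): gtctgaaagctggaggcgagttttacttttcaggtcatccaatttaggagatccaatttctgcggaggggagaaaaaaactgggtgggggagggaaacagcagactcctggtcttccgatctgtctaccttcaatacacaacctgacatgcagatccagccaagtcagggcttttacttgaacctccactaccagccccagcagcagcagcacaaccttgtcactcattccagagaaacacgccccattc
Lgr5 (chr10:115423686-115423935, minus strand): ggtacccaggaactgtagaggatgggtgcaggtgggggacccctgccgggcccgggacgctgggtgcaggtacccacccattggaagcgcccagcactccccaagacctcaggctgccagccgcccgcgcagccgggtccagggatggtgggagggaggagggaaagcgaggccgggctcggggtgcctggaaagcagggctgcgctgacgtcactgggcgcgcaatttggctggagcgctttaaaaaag
Lgr6 (chr1:135033101-135033350, minus strand): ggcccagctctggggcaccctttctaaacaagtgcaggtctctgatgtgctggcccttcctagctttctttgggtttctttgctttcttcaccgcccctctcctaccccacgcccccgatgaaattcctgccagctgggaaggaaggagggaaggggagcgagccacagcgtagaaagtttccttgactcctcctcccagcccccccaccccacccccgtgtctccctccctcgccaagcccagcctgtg
Lrp6 (chr6:134544213-134544462, minus strand): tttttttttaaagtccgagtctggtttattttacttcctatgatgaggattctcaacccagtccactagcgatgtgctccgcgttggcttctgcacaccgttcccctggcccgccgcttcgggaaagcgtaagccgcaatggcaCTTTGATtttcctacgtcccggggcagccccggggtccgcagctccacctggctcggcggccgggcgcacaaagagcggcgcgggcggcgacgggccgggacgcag
Of these, the window of Lrp6 holds the motif once. Among all 10 genes, Rspo1, Rspo2 and Lrp6 hold it, against 16.2% of the windows of 21770 protein-coding genes. A match of letters is a description and not a binding site. The Lgr5 and Lgr6 windows are rich in G and C (68.0% and 61.2%), while that of Lgr4 has 50.4%, close to the median of 51.2% over all windows.

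The R-spondin receptors moved in different directions. Lgr4 (ENSMUSG00000050199, chromosome 2, 109747839 to 109844609 of GRCm39), the most broadly expressed of the 3 receptors, had 924, 1054 and 955 normalized counts in the WT replicates and 492, 437 and 473 in the Dab2-cKO replicates. The highest Dab2-cKO library was well under the lowest WT library. The means were 978 ± 68.1 and 468 ± 27.9 (SD, n = 3 each), a log2 fold change of -1.06 (SE 0.08, adjusted p = 7.09e-19 by edgeR). Lgr5 (ENSMUSG00000020140, chromosome 10, 115286216 to 115423685) was counted at 405, 432 and 407 in WT and at 143, 167 and 189.8 in Dab2-cKO. The genotypes again did not overlap, and the mean fell from 415 ± 14.8 to 167 ± 23.4 (SD, n = 3 each), which was 2.50-fold lower. Its log2 fold change was -1.32 (SE 0.11, adjusted p = 2.01e-16 by edgeR). Lgr6 (ENSMUSG00000042793, chromosome 1, 134911039 to 135033100) went the other way, with 263, 303 and 261 normalized counts in WT and 371, 392 and 403 in Dab2-cKO. Every Dab2-cKO library was above every WT library, and the mean rose from 276 ± 24.1 to 389 ± 16.3 (SD, n = 3 each). The fitted log2 difference was 0.49 (SE 0.10, adjusted p = 5.99e-05 by edgeR). With library size as the only scaling, the difference of Lgr6 shrank to 0.07 and was not called (adjusted p = 0.592 by edgeR). That scaling moved the median log2 fold change of all genes to -0.45, from -0.02.

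Of the 32149 genes tested across the table, 28.2% were called at an adjusted p under 0.05, 11.5% as lower and 16.8% as higher in the libraries labelled Dab2-cKO. Against this, 6 of the 10 genes examined here were called lower and 2 higher, with a median log2 fold change of -0.77. The shares over all genes depend on abundance. Among 14801 genes with a mean count of at least 50, 4062 were called lower and 4461 higher. At that filter 5 of the 10 genes were called lower and 2 higher, and Rspo2 was not tested. Of the calls over all genes, 59.4% were higher with TMM scaling, 43.5% with upper-quartile scaling and 19.4% with library size only. Normalized counts did not overlap between genotypes in 9 of the 10 genes. The share was 38.3% over all genes tested and was not taken at a mean count of at least 50. The 6 called lower and these 9 include Rspo2, whose means were not above an evenly spread background.

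**Figure D1:**
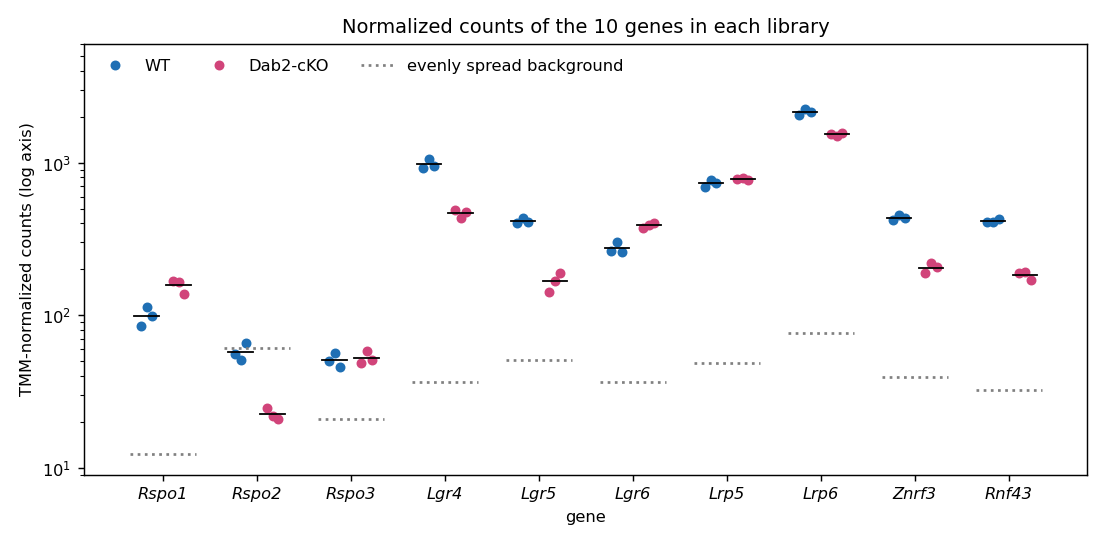
TMM-normalized counts on a log axis for the 10 genes. Points are the 3 libraries of each genotype, black lines their means and dotted lines the counts that an evenly spread background would give. Lgr4, Lgr5, Lrp6, Znrf3 and Rnf43 lie lower in the Dab2-cKO libraries and Rspo1 and Lgr6 higher, while the points of Rspo3 overlap and Rspo2 lies around the dotted line in WT and under it in Dab2-cKO.

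The ligases moved with Lgr4 and Lgr5. Znrf3 (ENSMUSG00000041961, chromosome 11, 5226324 to 5394939) had 424, 451 and 432 normalized counts in WT and 188, 219.8 and 206 in Dab2-cKO. Rnf43 (ENSMUSG00000034177, chromosome 11, 87553548 to 87626377) had 409, 407 and 426 in WT and 189, 191 and 171 in Dab2-cKO. In both genes every Dab2-cKO library was below every WT library. The mean of Znrf3 fell from 436 ± 14.0 to 205 ± 16.0 (SD, n = 3 each), a log2 fold change of -1.09 (SE 0.11, adjusted p = 3.16e-14 by edgeR). That of Rnf43 fell from 414 ± 10.2 to 184 ± 10.9 (SD, n = 3 each), a log2 fold change of -1.17 (SE 0.11, adjusted p = 5.09e-15 by edgeR). Both also passed a test against a 1.5-fold change, as did Lgr4, Lgr5 and Rspo2. In that test the adjusted p was 1.07e-05 for Znrf3 and 1.1e-06 for Rnf43, and 1.22e-07 and 1.51e-08 for Lgr4 and Lgr5 (edgeR).

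Of the coreceptors, only Lrp6 passed the threshold. Lrp6 (ENSMUSG00000030201, chromosome 6, 134423439 to 134544212) is the coreceptor whose internalization Dab2 is known to affect. It was counted at 2044, 2256 and 2140.3 in WT and at 1549.6, 1500.4 and 1574 in Dab2-cKO. The libraries of the genotypes stood apart, with means of 2147 ± 106 and 1541 ± 37.4 (SD, n = 3 each) and a log2 fold change of -0.48 (SE 0.07, adjusted p = 2.91e-08 by edgeR). The difference was under 1.5-fold, and it did not pass a test against that fold (adjusted p = 1 by edgeR). Lrp5 (ENSMUSG00000024913, chromosome 19, 3634821 to 3736643), its close relative, had 689, 772 and 733 normalized counts in WT and 781, 799 and 775 in Dab2-cKO. These did not overlap either, though by a narrow margin, and the log2 fold change of 0.10 (95% interval -0.05 to 0.25, adjusted p = 0.393 by edgeR) did not pass the threshold. The sign of Lrp5 depended on the scaling, with -0.04 by upper-quartile scaling and -0.33 by library size only, where Lrp5 was called lower (adjusted p = 2.18e-05 by edgeR).

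**Figure D2:**
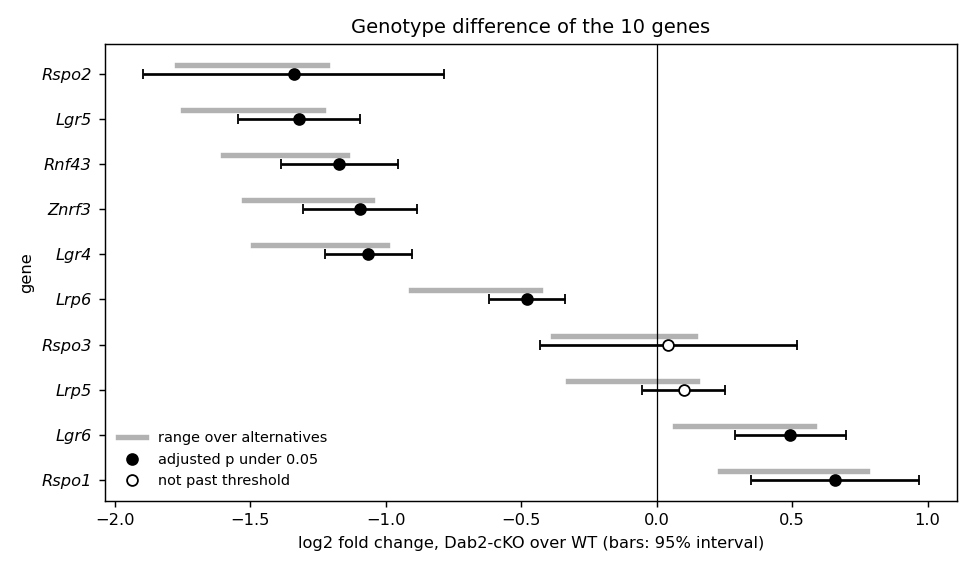
Log2 fold change (Dab2-cKO over WT) for each gene, with bars for the 95% interval. Filled points had an adjusted p under 0.05 by edgeR, and grey bars span the values under up to 16 other settings. The grey bars of Rspo3 and Lrp5 cross 0, and those of the other 8 genes stay on one side.

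Of the 3 ligands among the 10 genes, Rspo1 lay furthest above background. As a measure of background, 1520 genes of olfactory, vomeronasal and trace amine receptors, which skin is not known to use, lay at 4.94 normalized counts per kb of exon in the median. Their 95th percentile was 12.4 in WT and 11.8 in Dab2-cKO. Rspo1 (ENSMUSG00000028871, chromosome 4, 124879876 to 124902892) was at 40.0 per kb in WT and 63.3 in Dab2-cKO. Its normalized counts were 84.6, 114 and 99.1 in WT and 169, 165 and 138 in Dab2-cKO. Every Dab2-cKO library was above every WT library, and the mean rose from 99.2 ± 14.6 to 157 ± 16.7 (SD, n = 3 each). This gave a log2 fold change of 0.66 (SE 0.15, adjusted p = 0.000411 by edgeR). With library size only it was 0.23 and did not pass (adjusted p = 0.224 by edgeR).

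Rspo2 (ENSMUSG00000051920, chromosome 15, 42877439 to 43034706), known from the dermal papilla, had 55.7, 50.6 and 65.8 normalized counts in WT and 24.8, 21.9 and 21.0 in Dab2-cKO. Its log2 fold change of -1.34 (SE 0.28) passed the threshold (adjusted p = 5.86e-05 by edgeR). However, an evenly spread background would give 61.1 counts over its 12.4 kb of annotated exon, and the means were 57.3 ± 7.75 and 22.5 ± 2.00 (SD, n = 3 each). Neither mean was above that background, and 1 of the 6 libraries, WT replicate 3, was. Rspo3 (ENSMUSG00000019880, chromosome 10, 29327285 to 29411876), a ligand also made by endothelial cells, had 50.1, 56.9 and 46.1 in WT and 48.6, 58.7 and 50.8 in Dab2-cKO. The libraries overlapped, and its log2 fold change was 0.04 (95% interval -0.43 to 0.52, adjusted p = 0.932 by edgeR). Per kb of exon Rspo3 lay at 12.1 in WT and 12.5 in Dab2-cKO, next to the 95th percentile of the receptor genes. Its sign changed with the scaling and with the replicate left out, and it passed in none of the 16 other settings (adjusted p of edgeR or DESeq2 from 0.202 to 1). The fourth R-spondin, Rspo4, which is not among the 10 genes, lay above those percentiles at 23.0 normalized counts per kb in WT and 27.6 in Dab2-cKO. It had 58.2 ± 16.1 and 69.7 ± 9.12 normalized counts (SD, n = 3 each) and did not pass (log2 fold change 0.26, adjusted p = 0.459 by edgeR).

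Markers of dermal cells moved beside Rspo1. The 12 genes of the fibroblast and dermal papilla list held 1.32% to 1.46% of all counts in WT and 3.19% to 3.48% in Dab2-cKO, led by the collagens Col1a1 (log2 fold change 1.56) and Col3a1 (1.98). Within that list the dermal papilla genes Corin (-1.05) and Alpl (-0.50) were lower, and Sox2 was not called. The 8 endothelial genes took 0.0206% to 0.0218% and 0.0508% to 0.0531% in the same order. Their part in the R-spondin values was not tested. Beside Lgr5, the 7 hair germ genes, of which Lgr5 is 1, took 0.0311% to 0.0329% of the counts in WT and 0.0183% to 0.0190% in Dab2-cKO. In that list Shh (-3.11), Cdh3 (-1.91), Gli1 (-1.37) and Wif1 (-1.27) were lower and Rgs5 (1.93), which pericytes also express, was higher. The list for the matrix, inner root sheath and hair shaft took 2.89% to 3.18% and 0.0219% to 0.0235%, and the proliferation list 0.145% to 0.146% and 0.0314% to 0.0324%. Beside Lgr6, the isthmus, infundibulum and sebaceous gland list, which holds Lgr6, took 0.198% to 0.213% and 0.248% to 0.263%, with Scd1 (1.65), Mgst1 (1.16) and Krt79 (0.93) higher and Krt17 (-1.64), Plet1 (-0.89) and Lrig1 (-0.35) lower. The part of these cell types, or of hair cycle stage, in the values of Lgr4, Lgr5, Lgr6, Znrf3 and Rnf43 was not tested. The markers Krt79 and Lrig1, both known from the region above the bulge, thus moved in opposite directions.

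Exons of other genes on the opposite strand cover part of several genes, namely 8.07% of the exon bases of Rnf43, 7.3% of Lgr5, 5.36% of Lgr6, 4.1% of Lgr4, 9.55% of Rspo3 and 2.65% of Lrp5. For Lrp6 and Znrf3 the share was 0.635% and 0.249%. As the strand setting of the counting is not given in the sources used here, reads at these bases cannot be assigned.

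To compare related genes without any scaling between libraries, their ratio was taken within each library from counts per kb of exon, with 0.5 counts added. Per length, Lgr6 was 0.898, 0.974 and 0.888 times Lgr5 in the WT replicates and 3.58, 3.25 and 2.93 times Lgr5 in the Dab2-cKO replicates. The 2 receptors were thus near equal in WT, and Lgr6 was the higher in every Dab2-cKO library. The mean log2 ratio went from -0.12 ± 0.07 to 1.70 ± 0.14 (SD, n = 3 each). For Lgr6 over Lgr4 it went from -1.82 ± 0.04 to -0.26 ± 0.13, and for Lgr5 over Lgr4 from -1.70 ± 0.05 to -1.96 ± 0.25 (SD, n = 3 each). Lrp6 was 1.87-fold above Lrp5 in WT and 1.25-fold above it in Dab2-cKO, with mean log2 ratios of 0.90 ± 0.01 and 0.32 ± 0.06 (SD, n = 3 each). In these 4 pairs the genotypes did not overlap, and the exact 2-sided permutation test gave p = 0.1, the smallest that 3 against 3 libraries allow (0.15 adjusted over the 6 pairs).

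In the other pairs the genotypes overlapped. The log2 ratio of Rnf43 to Znrf3 was 0.21 ± 0.07 among WT libraries and 0.13 ± 0.14 among Dab2-cKO libraries (SD, n = 3 each, exact permutation p = 0.5). That of Znrf3 to Lgr4 was -1.27 ± 0.05 and -1.30 ± 0.20 (SD, n = 3 each, exact permutation p = 0.8). The difference in the latter was -0.03, and it was 0.07 without Dab2-cKO replicate 1. The difference for Lgr5 over Lgr4 was -0.26, and without Dab2-cKO replicate 1 it was -0.12.

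**Figure D3:**
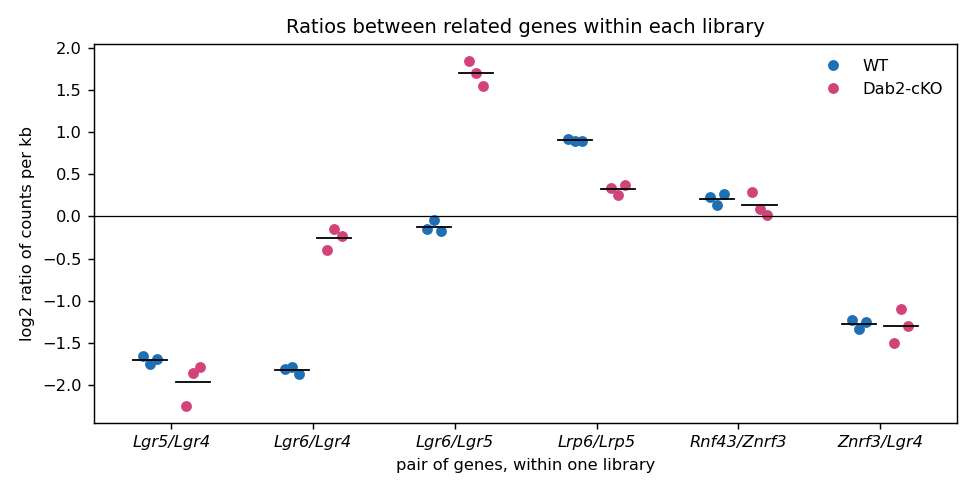
Log2 ratio of counts per kb between related genes within each library. Points are single libraries and black lines group means. Lgr6 over Lgr5 lies between -0.17 and -0.04 in WT and between 1.55 and 1.84 in Dab2-cKO, and the points of Rnf43 over Znrf3 and of Znrf3 over Lgr4 overlap.

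The order of the genes by level therefore differed in places 2 to 8, while Lrp6, Rspo3 and Rspo2 kept theirs. Some neighbours in the order overlapped. Per kb of exon, Lrp6 (139 ± 6.87) and Lgr4 (131 ± 9.14) were highest in WT and overlapped. They were followed by Lrp5 (74.4 ± 4.21), Rnf43 (63.0 ± 1.55) and Znrf3 (54.3 ± 1.74), each apart from its neighbours. Lgr5 (40.4 ± 1.44), Rspo1 (40.0 ± 5.87) and Lgr6 (37.2 ± 3.25) were not separated from their neighbours in this order, and Rspo3 and Rspo2 were lowest (SD, n = 3 each). In Dab2-cKO, Lrp6 (99.9 ± 2.42) was again highest, followed by Lrp5 (79.8 ± 1.25). Rspo1 (63.3 ± 6.74) and Lgr4 (62.8 ± 3.75) overlapped, and Lgr6 (52.4 ± 2.19) came next. Rnf43 (27.9 ± 1.66) and Znrf3 (25.5 ± 2.00) overlapped, and Lgr5 (16.2 ± 2.28) was the lowest of the receptors, above the background limit of 11.8 (SD, n = 3 each). Of its 167 normalized counts in Dab2-cKO, an even background would give 50.7.

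**Figure D4:**
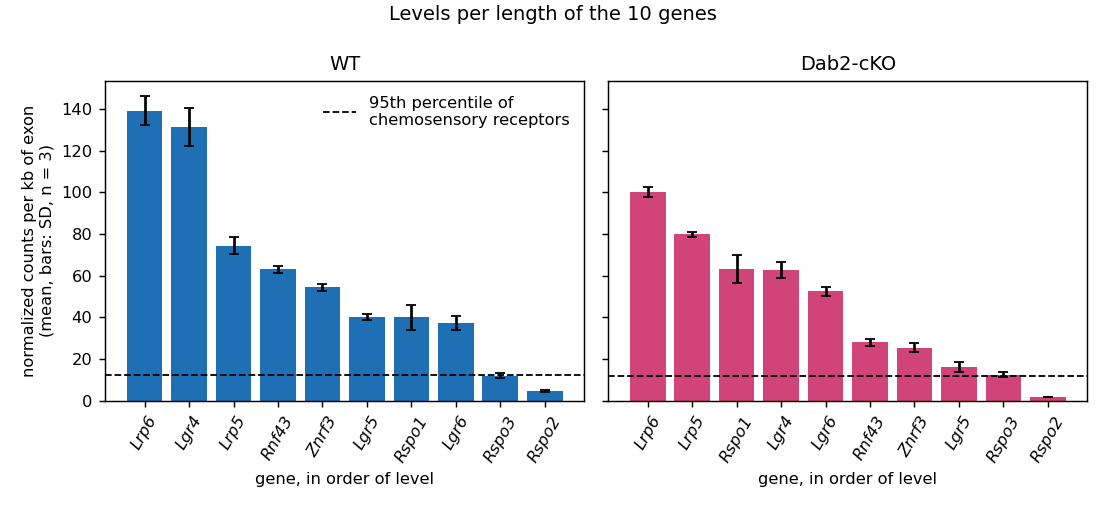
Mean normalized counts per kb of exon in each genotype, in order of level. Bars show the SD over 3 libraries and the dashed line the limit below which 95% of chemosensory receptor genes lay, 12.4 in WT and 11.8 in Dab2-cKO. Lgr4 moves from place 2 to 4, Lgr5 from 6 to 8, Rspo1 from 7 to 3 and Lgr6 from 8 to 5. Rspo2 lies under the line in both genotypes.

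Around these genes, other components at the receptor level moved in both directions. The medians below are set beside -0.02, the median log2 fold change of all genes tested. The calls are set beside 28.2% of all genes tested, and beside 8523 called of 14801 genes with a mean count of at least 50. Of 14 Frizzled and other Wnt receptors, 7 were lower and 1 higher, with a median of -0.33. Fzd5 (-2.26) and Fzd10 (-2.17) fell most and Fzd4, the receptor known from blood vessels, rose (1.40). Per kb, Fzd10 went from 137 to 30.0 normalized counts and Fzd4 from 65.3 to 173. Of 20 regulators at the receptor level, 4 were lower, 4 higher and 12 not called, with a median of 0.05. Here Wif1, a secreted Wnt binder, fell (-1.27), and Dkkl1 (1.65) and Dkk2 (1.51), a relative and a member of the Dickkopf family of Lrp5 and Lrp6 ligands, rose. The other Dickkopf genes of the list, Dkk1 (-0.002), Dkk3 (0.11) and Dkk4 (0.26), were not called. Per kb, Dkk1 lay at 8.34 in WT and 8.31 in Dab2-cKO, under the 95th percentile of the chemosensory receptors. Dkk4 lay next to it at 10.8 and 12.9, so a change of these 2 genes could hardly be seen. Kremen2, which binds Dickkopf proteins together with Lrp6, was lower, with 61.7 ± 6.91 and 31.0 ± 3.13 normalized counts (SD, n = 3 each, adjusted p = 0.00114 by edgeR), and Kremen1 also (-0.26, adjusted p = 0.011 by edgeR), though its libraries overlapped.

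Of 12 genes for Dishevelled proteins and the β-catenin destruction complex, 7 were lower, with a median of -0.19. Ctnnb1 (-0.76) and Csnk1g3 (-0.65), a membrane-bound casein kinase that phosphorylates LRP6, fell most. The count of 7 was 4 by DESeq2, 3 without WT replicate 2, 4 without WT replicate 3 and 3 without Dab2-cKO replicate 3. Of 13 known targets of canonical Wnt signaling outside the 10 genes, 7 were lower and the other 6 did not pass, with a median of -0.32. Lef1 (-3.09) and Nkd2 (-1.40) fell most. Axin2, often used as a readout of the pathway, had a log2 fold change of -0.25 (adjusted p = 0.0329 by edgeR), with overlapping libraries. The count of 7 targets was 4 by DESeq2 and 4 without WT replicate 2. The lists share some genes, so their calls are not separate. Axin2 is also in the destruction complex list, and Notum and Apcdd1 are also among the regulators. Notum, counted as lower in both lists, lay under the 95th percentile of the chemosensory receptors, at 10.4 per kb in WT and 6.31 in Dab2-cKO. Lrp4 is in the list of regulators and in that of the LDL receptor family. The study showed Lgr4, Lgr5 and several genes of these lists from the same libraries, so the counts are not independent of its choice.

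The other leucine-rich repeat receptors, which bind gonadotropins, thyrotropin and relaxins, had 6.35 to 12.9 normalized counts per kb in WT and 6.09 to 11.4 in Dab2-cKO, at the level of the chemosensory receptors. None of these 5 passed by edgeR or DESeq2, and 0 had an unadjusted p under 0.05 by either tool. Lgr4, Lgr5 and Lgr6 lay above them in both genotypes. Of 12 members of the LDL receptor family other than Lrp5 and Lrp6, 4 were higher and 4 lower, with a median of 0.05. The endocytic receptor Lrp1 rose most (1.22), from 3341 ± 301 to 7779 ± 159 normalized counts (SD, n = 3 each), and Vldlr rose as well (1.13). Lrp12 (-0.76) and Lrp8 (-0.75) fell. Lrp6 and Lrp5 thus stood between these members.

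**Figure D5:**
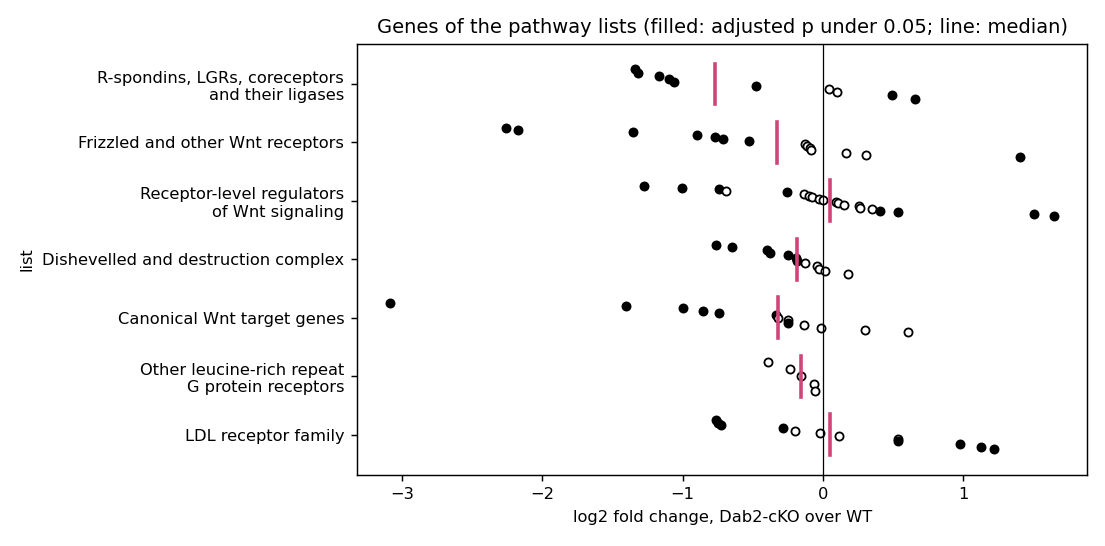
Log2 fold change (Dab2-cKO over WT) for the 10 genes (top) and for 6 lists of related genes. Each point is a gene, filled where the adjusted p was under 0.05 by edgeR, and the coloured line is the median of the list. The 10 genes have a median of -0.77, the Frizzled list -0.33 and the LDL receptor family 0.05.

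The genes whose levels ran most like Lgr5 and Lgr6 were sought among 10845 genes with at least 100 normalized counts, by Pearson's r of log2 CPM over the 6 libraries. Since the libraries fall into 2 genotypes, r is high for any gene that differs between them with little spread. For Lgr5, 119 genes had r over 0.99. The 5 highest were Gpnmb (log2 fold change -2.36), a glycoprotein of melanosomes and macrophages, Tgfa (-1.64), a ligand of the EGF receptor, E2f8 (-1.03), a cell-cycle transcription factor, Kpna2 (-1.12), a nuclear import receptor, and Fubp3 (-0.36). For Lgr6, 76 genes had r over 0.99, led by Akr1a1 (0.61), an aldo-keto reductase, Pkd2 (0.81), a cation channel, and Cltc (0.45), the clathrin heavy chain. Zrsr1 (0.85) and Dhrs7c (1.55) completed the 5.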

How the data were processed

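Counts per gene were measured in 6 libraries of sorted HFSCs, 3 labelled WT and 3 labelled Dab2-cKO. Per the labels and methods, the authors trimmed reads with fastp 0.23.4, aligned them to GRCm39 with HISAT2 2.2.1 and counted them with featureCounts 2.0.6. The deposited counts are raw. The authors' DESeq2 1.42.0 output, with fold changes, p-values and scaled counts, was not used. Columns named FL-FL were taken as Dab2-cKO because the series title equates the 2, although both genotypes carry floxed alleles.

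Genes were filtered with edgeR 4.0.16 (filterByExpr), scaled by TMM and compared by its quasi-likelihood test in R 4.3.3, with Benjamini-Hochberg adjustment over all genes tested. Normalized counts are counts over effective library size, scaled to the mean size. Exon lengths, found for 56323 of 56941 genes, and coordinates came from GENCODE M39 (GRCm39). The code was tested on simulated data. Replicates are separate biological replicates per the labels. All pairs within a genotype differed beyond sampling noise on average over genes. Their mean chi-square per gene was 4.17 (WT replicates 1 and 2) to 16.7 (Dab2-cKO replicates 1 and 2), scaled by library total only. Abundant genes can carry that mean. For some of the 10 genes, such as Rnf43 in WT (414 ± 10.2, SD, n = 3), the spread was under counting error.

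The 10 genes and all lists were chosen with earlier results of these data known. Named genes were the 10, Dab2, Rspo4, and from each pathway list the 2 largest rises and falls among called genes with at least 100 normalized counts and no overlap between genotypes, with the 5 genes most like Lgr5 and Lgr6. The rule also named the 2 most abundant genes of each marker list, of which only some are printed. Further genes of these lists, such as Shh, Corin, Kremen2 and Axin2, were named after their values were seen. Alternatives were DESeq2, other scalings and filters, a replicate block, each library left out, a test against 1.5-fold, and, chosen after seeing the data, loess offsets for GC content and exon length. Amino acid sequences were not used here.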

Additional observations from a re-analysis of the deposited data

How the results depend on the processing

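The 6 falls held in every setting in which the gene was tested, except that Lrp6 did not pass the test against a 1.5-fold change (log2 fold change -0.48). The fall of Rspo2 is among the 6, although its means were not above background. Lgr6 and Rspo1 kept their direction in all 16 settings and lost the call in 2 of them, with library size only (0.069 and 0.234) and in the test against 1.5-fold (0.49 and 0.66), so that the number of the 10 genes called higher became 0 there. The cause was not tested. Rspo3 turned to -0.10 under upper-quartile scaling, -0.38 when scaled by library size only, -0.042 with a mean count of at least 50, -0.002 with the GC offset and -0.018 with the length offset, and ranged from -0.064 to 0.14 with 1 library left out. Lrp5 turned to -0.042 under upper-quartile scaling and -0.327 when scaled by library size only. Rspo2 was not tested with a mean count of at least 50.

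Over all genes, 5387 were higher and 3682 lower. With library size only they were 2686 and 11168, in the test against 1.5-fold 2222 and 1136, and with upper-quartile scaling 5561 were lower. Without each library in turn, 4800 to 5322 were higher and 3091 to 3731 lower. For the lists, the calls in the test against 1.5-fold were 5 (Frizzled), 3 (regulators), 1 (destruction complex), 4 (targets) and 3 (LDL receptor family). With library size only they were 14 (regulators), 12 (destruction complex) and 4 (other leucine-rich repeat receptors), and by DESeq2 4 (destruction complex) and 4 (targets). Medians with library size only were -0.75 (Frizzled), -0.38 (regulators), -0.62 (destruction complex), -0.76 (targets), -0.59 (other leucine-rich repeat receptors) and -0.38 (LDL receptor family), beside -0.45 for all genes. With upper-quartile scaling they were -0.47 (Frizzled), -0.10 (regulators), -0.33 (destruction complex), -0.31 (other leucine-rich repeat receptors) and -0.10 (LDL receptor family). A mean count of at least 50 gave -0.61 (Frizzled) and -0.10 (LDL receptor family), the GC offset -0.021 (LDL receptor family), and the length offset -0.007 (LDL receptor family) and -0.24 (other leucine-rich repeat receptors).

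With 1 library left out, the calls ranged from 3 to 7 in the destruction complex and from 4 to 8 among the targets. The medians ranged from -0.41 to -0.30 (Frizzled), -0.027 to 0.075 (regulators), -0.26 to -0.07 (other leucine-rich repeat receptors) and -0.038 to 0.059 (LDL receptor family), and the difference in the ratio of Znrf3 to Lgr4 from -0.13 to 0.07.

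The genotypes share replicate numbers, but deviations of same-numbered libraries correlated at 0.138, -0.0484 and 0.104, so the numbers were not taken as pairs. With the replicate block, 5347 genes were higher and 3620 lower, and 2 of the 10 genes were called higher and 6 lower.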
